A study of Mus musculus with 6 samples.

Results

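The RNAs described here are those encoded by the mitochondrial genome, read by strand, in 4T1 cells, a mouse mammary carcinoma line. The members were chosen by name, as every gene in the files whose symbol starts with mt-, and there were 16 of them among 13405 genes. The heavy strand contributed 12 members: 6 mRNAs (mt-Nd1, mt-Nd2, mt-Co1, mt-Nd4, mt-Nd5 and mt-Cytb), 2 rRNAs (mt-Rnr1 and mt-Rnr2) and 4 tRNAs (mt-Tl1, mt-Ti, mt-Tw and mt-Tt). The light strand contributed 4 members, the mRNA mt-Nd6 and the tRNAs mt-Tq, mt-Ta and mt-Tp. Here a heavy-strand gene is one on the plus strand of the reference mitochondrial sequence and a light-strand gene one on the minus strand. The other 6 mRNAs and 15 tRNAs annotated there are not analysed here.

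Total RNA was sequenced from 3 libraries of ATM KO cells and 3 libraries of vector control cells, with Balb/c as the labelled strain. ATM KO cells carry a knockout of Atm, the gene of a kinase that signals DNA breaks, and the control cells carry a vector. The series was made to study ATM loss and leakage of mitochondrial DNA, whereas the values below measure RNA and neither the amount nor the place of that DNA. It is not labelled whether replicate libraries derive from independent cultures or clones, and p-values therefore refer to library-to-library spread alone, part or all of which may be technical.

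Both strands of the mitochondrial genome are transcribed as long RNAs that carry many genes in a row, and tRNAs are cut out of them to release the mRNAs and rRNAs. Most proteins and both rRNAs are encoded by the heavy-strand transcript. The light-strand transcript holds a single mRNA, mt-Nd6, and a set of tRNAs, and most of the rest of it is degraded soon after it is made. All these mRNAs encode subunits of the respiratory chain complexes and are translated inside the organelle.

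Genes of the heavy and the light strand differ in the base composition of their coding sequences, which the start of these sequences makes visible. Bases are counted as they stand in the RNA, not in the DNA strand that is copied into it. G made up 28.1% of mt-Nd6, against 7.996% to 16.1% over the 6 heavy-strand mRNAs listed, and C made up 5.97% of mt-Nd6, against 23.8% to 27.7%. The first 60 bases of 3 genes are printed with G in capitals, 5′ to 3′ on the coding strand, from GENCODE M21 transcripts on GRCm38: mt-Nd6 (chrM:14011-14070, minus strand), mt-Cytb (chrM:14145-14204, plus strand) and mt-Nd2 (chrM:3914-3973, plus strand).
mt-Nd6: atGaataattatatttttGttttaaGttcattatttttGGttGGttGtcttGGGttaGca
mt-Cytb: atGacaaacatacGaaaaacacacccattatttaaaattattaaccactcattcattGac
mt-Nd2: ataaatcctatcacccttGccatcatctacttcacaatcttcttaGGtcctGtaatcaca
These stretches held 12 G in mt-Nd6, 3 in mt-Cytb and 4 in mt-Nd2.

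The same contrast shows in a pair of adjacent tRNA genes on opposite strands, printed whole with G in capitals: mt-Tp, the proline tRNA (chrM:15356-15422, minus strand), and mt-Tt, the threonine tRNA (chrM:15289-15355, plus strand).
mt-Tp: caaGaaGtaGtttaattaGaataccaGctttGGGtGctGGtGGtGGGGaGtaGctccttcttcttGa
mt-Tt: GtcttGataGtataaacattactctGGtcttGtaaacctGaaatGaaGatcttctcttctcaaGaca
Of 67 bases each, 20 were G in mt-Tp and 10 in mt-Tt. Among the tRNAs listed, mt-Tp had the highest share of G (29.9%) and mt-Tt the lowest (14.9%), so this pair shows the contrast at its widest. The neighbours mt-Ti (heavy) and mt-Tq (light) had 15.9% and 25.4%, and mt-Tw (heavy) and mt-Ta (light) 17.9% and 20.3%. Heavy-strand mt-Tl1, at 21.3%, lay above light-strand mt-Ta.

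mt-Nd6 also faces a heavy-strand gene end to end, which bears on how its reads can be read. Its last bases are complementary to the last bases of mt-Nd5 over 14 bases (chrM:13552-13565). The last 40 bases of each gene are printed with the overlap in capitals: mt-Nd5 (chrM:13526-13565, plus strand) and mt-Nd6 (chrM:13552-13591, minus strand).
mt-Nd5: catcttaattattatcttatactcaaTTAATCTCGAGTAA
mt-Nd6: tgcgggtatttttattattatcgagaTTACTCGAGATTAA
The sources used here do not state whether counting used strand. Without it, reads from mt-Nd6 and heavy-strand RNA that runs across the same interval cannot be told apart.

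Over the 13405 genes listed, the libraries held 22494919 to 32341508 reads in ATM KO cells and 27264975 to 30042957 in vector control cells. Vector control 1 stood apart from vector controls 2 and 3, with a correlation across 12149 genes of 0.914 to each, whereas those 2 correlated at 0.997. Values without vector control 1 are therefore given beside the differences that it moves. The ATM KO libraries were also spread, from 0.930 (2 with 3) to 0.970 (1 with 2), and ATM KO 2 correlated with vector control 1 at 0.965. Values without vector control 1 keep all ATM KO libraries and rest on 2 controls that are nearly alike, so a smaller SE there is no sign of greater certainty. Atm stood at 1591 to 2220 normalized read counts in ATM KO libraries and 1519 to 1978 in vector control libraries, so its level did not check the labels. Of the epithelial markers, 7 of 8 were listed, with summed values of 82352 to 139702 in ATM KO libraries and 65791 to 108005 in vector control libraries. Single markers differed. Cldn4 stood at 13011 to 26219 in ATM KO and 8863 to 11457 in vector control libraries, and Krt14 at 1370 to 2311 and 150 to 684. The groups overlapped for the other listed ones. Epcam and Krt19 were lowest in vector control 1 (6116 and 2913) and next lowest in ATM KO 2 (8142 and 4679). For the other cell types, the files list 1 of 6 leukocyte markers (Csf1r, 438 to 1119 in ATM KO and 229 to 387 in vector control), 1 of 4 fibroblast markers (Pdgfra, 323 to 712 in ATM KO and 129 to 474 in vector control) and 1 of 3 endothelial markers (Cdh5, 0 to 6.84 in ATM KO and 2.10 to 11.7 in vector control); their part in the results was not tested.

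The light-strand mRNA mt-Nd6, a core subunit of complex I, was higher in ATM KO cells and was the most even of the mRNAs and rRNAs within the vector control group. It stood at 7348, 8726 and 8051 normalized read counts in ATM KO 1 to 3 and at 5476, 5816 and 5347 in vector controls 1 to 3. A normalized read count is the number of reads of a gene divided by 1 factor per library. All ATM KO libraries lay above all control libraries, and vector control 1 lay between the other controls. The log2 fold change, ATM KO minus vector control, was 0.53 (SE 0.13, limma), with an adjusted p of 0.999. With DESeq2 on the recovered reads the log2 fold change was 0.54 and the adjusted p 0.0426, whereas edgeR gave an adjusted p of 1.00. Without vector control 1 the limma estimate was 0.52 (SE 0.13), with an adjusted p of 0.245. In bulk libraries such as these, a change in the number of cells of a type and a change in RNA per cell cannot be told apart.

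On the heavy strand, the 5′ part of the transcript carries mt-Rnr1 and mt-Rnr2, the RNAs of the small and the large mitochondrial ribosome subunit. mt-Rnr2 stood at 28561, 36239 and 29826 in ATM KO libraries and 22626, 12816 and 10984 in vector control libraries. Its groups did not overlap, with a log2 fold change of 1.09 (SE 0.29, limma adjusted p = 0.999). mt-Rnr1 stood at 5061, 6084 and 4614 in ATM KO libraries and 5445, 4022 and 2620 in vector control libraries. Here vector control 1 exceeded ATM KO 1 and 3, and the log2 fold change was 0.44 (SE 0.28, limma adjusted p = 0.999).

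mt-Nd1 and mt-Nd2, both complex I subunits, follow next in genome order. mt-Nd1 stood at 69029, 62708 and 73110 in ATM KO libraries and 77411.5, 26582 and 24248 in vector control libraries. Vector control 1 was the highest of all 6 libraries for this gene, at 3.05 times the mean of the other 2 controls, and the groups overlapped. mt-Nd2 stood at 34718, 34600 and 35488 in ATM KO libraries, within a factor of 1.03 of each other, and at 27465, 15048 and 13516 in vector control libraries. All ATM KO libraries lay above all controls for mt-Nd2. The limma log2 fold changes were 0.89 (SE 0.44) for mt-Nd1 and 0.98 (SE 0.27) for mt-Nd2.

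mt-Co1, the catalytic subunit of cytochrome c oxidase, varied more than any other mRNA among the ATM KO libraries. It stood at 55683, 33161 and 69900 in ATM KO libraries and 43898, 31922 and 28116 in vector control libraries. ATM KO 2 lay below vector control 1, so the groups overlapped, and the log2 fold change was 0.57 (SE 0.31, limma). This estimate is close to that of mt-Nd6 and was the smallest among the heavy-strand mRNAs.

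The 3′ part of the heavy-strand transcript carries mt-Nd4 and mt-Nd5, again complex I subunits, and mt-Cytb, the cytochrome b of complex III. mt-Nd4 stood at 10924, 9885 and 13713 in ATM KO libraries and 8626, 4658 and 3803 in vector control libraries. mt-Nd5 stood at 20504, 21535 and 26873 in ATM KO libraries and 21286, 10656 and 7178 in vector control libraries. mt-Cytb stood at 42734, 39074 and 49120 in ATM KO libraries and 33727, 17297 and 14966 in vector control libraries. The groups did not overlap for mt-Nd4 and mt-Cytb, whereas for mt-Nd5 vector control 1 exceeded ATM KO 1. The limma log2 fold changes were 1.09 (SE 0.32) for mt-Nd4, 0.96 (SE 0.39) for mt-Nd5 and 1.08 (SE 0.31) for mt-Cytb.

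**Figure D1:**
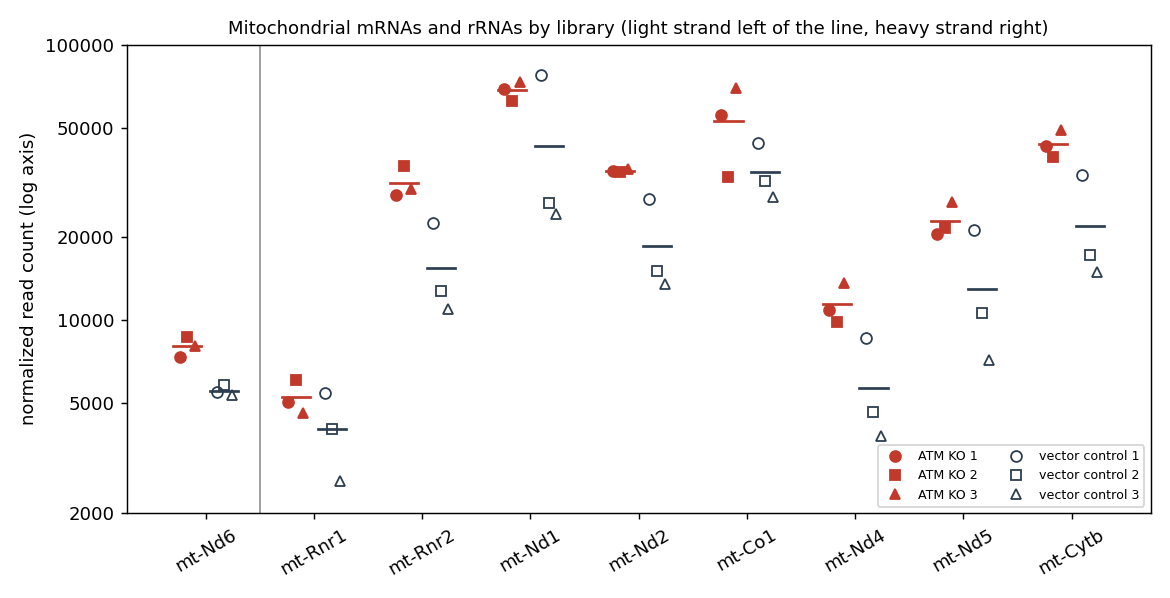
Normalized read count (log axis) of the mitochondrial mRNAs and rRNAs in each library, ATM KO filled and vector control open, with horizontal bars at the group means (n = 3 each). Open circles, vector control 1, sit above the other controls for all 8 heavy-strand genes shown and between them for mt-Nd6.

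The tRNA genes were covered by few reads, and their levels per kb were also below those of every mRNA and rRNA. The tRNAs with the most reads were mt-Tl1, the leucine tRNA that follows mt-Rnr2, with 92, 110 and 62 reads in ATM KO libraries and 71, 32 and 22 in vector control libraries, and the light-strand mt-Tp, with 72, 56 and 32 reads in ATM KO libraries and 37, 31 and 27 in vector control libraries. After division by the library factor, neither gene's groups overlapped: mt-Tl1 stood at 78.7, 117 and 79.3 in ATM KO libraries and 69.1, 31.0 and 23.1 in vector control libraries, and mt-Tp at 61.6, 59.4 and 41.0 in ATM KO libraries and 36.0, 29.99 and 28.4 in vector control libraries. mt-Tw, the tryptophan tRNA, stood at 24.8, 45.6 and 26.9 in ATM KO libraries and 12.6, 18.4 and 11.6 in vector control libraries, also without overlap. Vector control 1 lay between the other 2 controls for mt-Tw and highest among controls for mt-Tl1 and mt-Tp.

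The remaining tRNAs were at the limit of what this depth can show. mt-Tt had 49 reads in ATM KO 2 and 2 to 10 reads in each other library. The light-strand glutamine tRNA mt-Tq had 4, 25 and 13 reads in ATM KO libraries and 16, 13 and 2 in vector control libraries, and no order of the groups can be read from it. mt-Ti, the isoleucine tRNA, had 5 to 9 reads in ATM KO libraries and 1 to 5 in vector control libraries. The light-strand alanine tRNA mt-Ta had 2 to 11 reads in ATM KO libraries and 2 in each vector control library.

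Across the 16 members, the mean was higher in ATM KO cells for 16, and for 9 of them all ATM KO values lay above all control values. Among these 9 is mt-Ta, for which ATM KO 3 and the 3 controls had 2 reads each and only the library factor sets them apart. The gene test required a mean of 10 or more, which left out mt-Ta and mt-Ti. The other 14 had positive log2 fold changes, beside 48.6% of all 12149 genes tested. Their median was 0.97, and -0.0090 over all tested genes. Of the 14, 8 did not overlap between groups with ATM KO above, where 5.7% of all tested genes did so. With limma none of the 14 passed an adjusted p of 0.05, and neither did any of the 12149 genes (0%). At an unadjusted p under 0.05, 8 of the 14 passed, as did 4.16% of all genes. edgeR called none of the 14 and 0% of all genes, and DESeq2 called mt-Nd6 alone, beside 0.691% of all genes in either direction and 0.56% higher in ATM KO. The members share their transcripts and libraries, so their directions are not independent of each other.

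By strand, the tested heavy-strand members had a median log2 fold change of 1.08 (11 genes, 0.44 for mt-Rnr1 to 1.51 for mt-Tt), and the light-strand members one of 0.54 (3 genes, 0.53 to 0.75). The value of mt-Tt rests on 1 library: it was 0.70 without ATM KO 2. With all libraries scaled to CPM of all listed reads mt-Tt stood at 0.51, but the other tested tRNAs were lower on that scale too. For example, mt-Tw went from 1.11 to 0.52 and mt-Tl1 from 1.27 to 0.85. There too 1 was added before the log2, to CPM values, which understates changes of genes with few reads. With more reads, mt-Nd6 went from 0.53 to 0.57 and mt-Rnr1 from 0.44 to 0.47. With all libraries the light-strand median was the value of mt-Tq, which had 2 to 25 reads per library. Without vector control 1 the medians were 1.40 for the heavy strand and 0.84 for the light strand, where mt-Tq moved to 0.99 and mt-Tp became the middle gene. In that setting 13 of the 14 tested members did not overlap, where 19.6% of all genes did so with ATM KO above, and 10 had an unadjusted p under 0.05, where 14.6% of all genes did. limma again called none of them and 0% of all genes. Leaving out this library moved mt-Nd1 most among the mRNAs, to 1.42 (SE 0.12), and left mt-Nd6 at 0.52. The other estimates without it were 0.68 for mt-Rnr1, 1.40 for mt-Rnr2, 1.29 for mt-Nd2, 0.75 for mt-Co1, 1.44 for mt-Nd4, 1.38 for mt-Nd5 and 1.43 for mt-Cytb (limma).

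**Figure D2:**
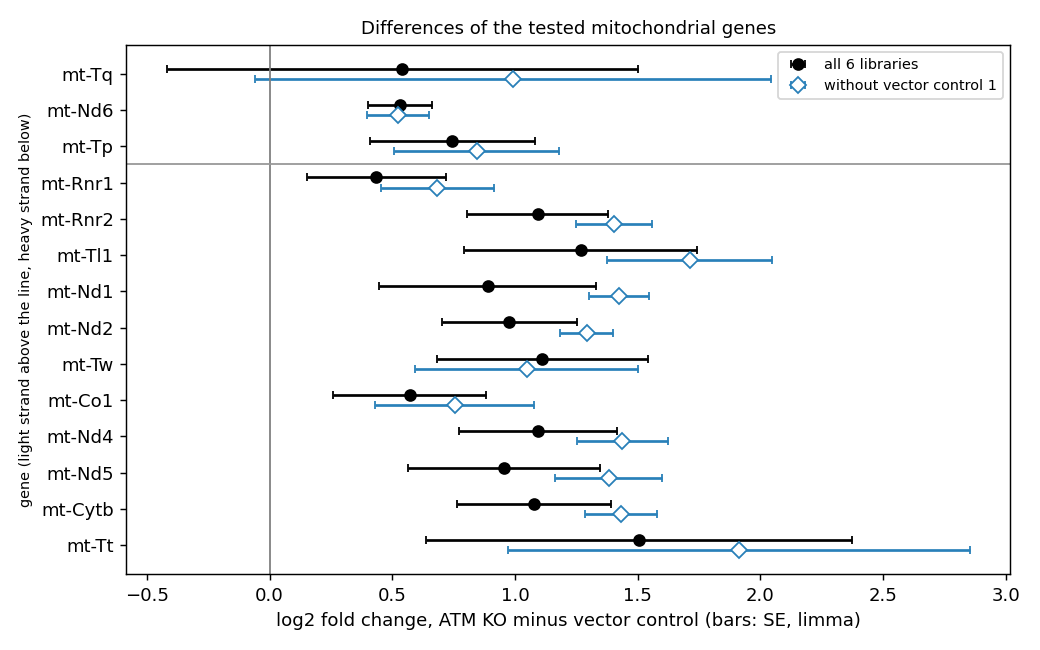
Log2 fold change of each tested mitochondrial gene, ATM KO minus vector control, with bars showing the SE from limma, for all 6 libraries (filled) and without vector control 1 (open). All filled points lie to the right of 0, mt-Nd6 has the shortest of the filled points' bars and stays at 0.53 and 0.52, and the bars of mt-Tq and mt-Tt are the longest.

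The members' summed reads were 0.993%, 0.907% and 1.08% of all reads in ATM KO 1 to 3 and 0.857%, 0.444% and 0.387% in vector controls 1 to 3. Here and below, all reads are those of the genes listed. The means were 0.993% ± 0.0865 in ATM KO cells and 0.563% ± 0.257 in vector control cells (SD, n = 3 each), a difference of 0.431 percentage points, which was 0.578 without vector control 1. The groups did not overlap, and a 2-sided exact permutation test gave p = 0.1, the smallest that 3 against 3 libraries allow. The Wilson intervals at 95% were narrow beside these differences (0.854% to 0.861% in vector control 1 and 0.903% to 0.910% in ATM KO 2), although they cover counting error only. With the 7 mRNAs alone the exact permutation test gave p = 0.2, because vector control 1 then exceeded ATM KO 2. Over the 15 shares tested, the adjusted p-values of these exact tests were no lower than 0.188.

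The 2 strands contributed unequally to this share. Heavy-strand members made up 0.966%, 0.875% and 1.05% of all reads in ATM KO libraries and 0.838%, 0.423% and 0.368% in vector control libraries. Light-strand members made up 0.0268%, 0.0317% and 0.0282% in ATM KO libraries and 0.0193%, 0.0202% and 0.0188% in vector control libraries. On the heavy strand vector control 1 was more than the sum of the other controls, whereas on the light strand the 3 controls were nearly level. Of the summed reads of the 16 members, which leave out the mitochondrial genes not analysed here, the light-strand members took 2.70%, 3.49% and 2.61% in ATM KO libraries and 2.25%, 4.55% and 4.85% in vector control libraries. The groups overlapped in that share, since vector control 1 was the lowest of all 6 libraries while vector controls 2 and 3 were the highest (exact permutation test, p = 0.4, adjusted p = 0.462 over the 15 shares). The difference was -0.947 percentage points, and -1.76 without vector control 1.

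The ratio of mt-Nd6 to the heavy-strand mRNAs was taken within each library, where the library factor cancels. It is the log2 value of mt-Nd6 minus the mean log2 value of the 6 heavy-strand mRNAs. The ratio was -2.16, -1.73 and -2.26 in ATM KO libraries and -2.40, -1.36 and -1.22 in vector control libraries. Vector control 1 had the lowest ratio of the 6 libraries, and vector controls 2 and 3 the highest. The means were -2.05 ± 0.28 in ATM KO cells and -1.66 ± 0.64 in vector control cells (SD, n = 3 each), a difference of -0.39 that is smaller than the spread of the controls (exact permutation test, p = 0.4, adjusted p = 0.72 over 6 ratios). Without vector control 1 the difference was -0.76, and the groups then did not overlap (exact permutation test, p = 0.2, the smallest that 3 against 2 libraries allow).

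The geometric mean of the heavy-strand mRNAs shows the same libraries from the other side. It was 32940, 29030 and 38552 in ATM KO libraries and 28862, 14905 and 12473 in vector control libraries, a log2 difference of 0.93 (exact permutation test, p = 0.1), which was 1.29 without vector control 1. Vector control 1 lay just below ATM KO 2. On the scale of deviations from the mean of the 6 libraries, vector control 1 stood at 0.26 for the heavy-strand mRNAs and at -0.28 for mt-Nd6. It was the only library in which the strands deviated in opposite directions.

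**Figure D3:**
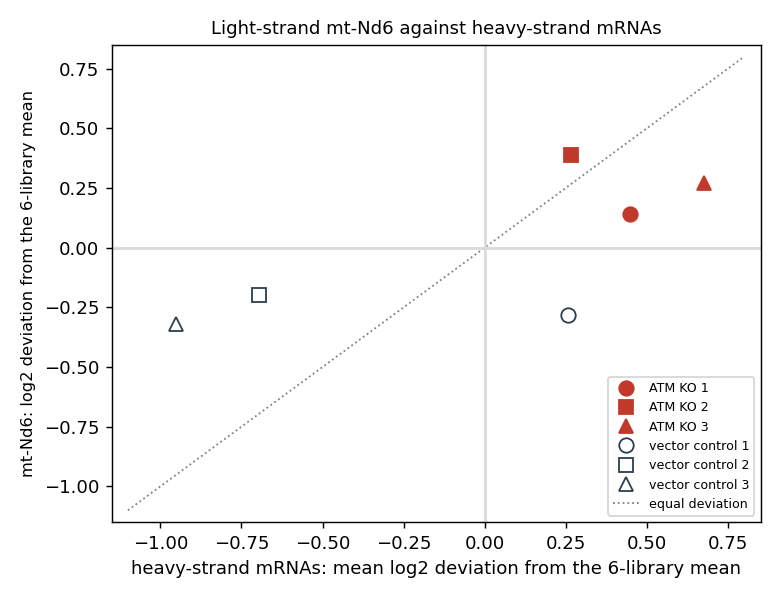
Log2 deviation from the mean of the 6 libraries for mt-Nd6 (vertical) against that of the heavy-strand mRNAs (horizontal, mean of 6 genes), 1 point per library, with a dotted line of equal deviation. Vector control 1 lies at 0.26 and -0.28, to the right of the other controls and below all ATM KO libraries.

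Each heavy-strand gene was also set against mt-Nd6 alone. The difference between groups in that log2 ratio, ATM KO minus vector control, was positive for 10 of the 11 tested heavy-strand genes, the exception being mt-Rnr1 at -0.098. It was 0.037 for mt-Co1, 0.36 for mt-Nd1, 0.42 for mt-Nd5, 0.44 for mt-Nd2, 0.54 for mt-Cytb and 0.56 for both mt-Nd4 and mt-Rnr2. With all 6 libraries the groups overlapped in every one of these ratios except that of mt-Tw, which rests on 11 to 43 reads per library. Without vector control 1 the groups did not overlap for 9 of the 11 genes, the exceptions being mt-Rnr1 and mt-Co1. All 11 ratios share the values of mt-Nd6 and the same 2 controls, so they are not independent. The share of all genes whose ratio to mt-Nd6 separates in this way was not taken. The differences were then 0.90 for mt-Nd1, 0.77 for mt-Nd2, 0.86 for mt-Nd5, 0.91 for both mt-Cytb and mt-Nd4, 0.88 for mt-Rnr2, 0.23 for mt-Co1 and 0.16 for mt-Rnr1. For each mRNA, leaving out vector control 2 or 3 gave a lower difference than all 6 libraries did, with mt-Nd1 at 0.086 without vector control 2 and 0.080 without vector control 3, and mt-Nd5 at 0.092 without vector control 3. With all 6 libraries the adjusted p-values of the exact permutation tests were 0.55 to 1.00 over the 11 genes.

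Within the heavy strand, the rRNAs did not keep step with each other. The log2 ratio of mt-Rnr2 to mt-Rnr1 was 2.496, 2.57 and 2.69 in ATM KO libraries and 2.05, 1.67 and 2.07 in vector control libraries. The groups did not overlap, and vector control 1 lay within the range of its own group. The means were 2.59 ± 0.099 in ATM KO cells and 1.93 ± 0.22 in vector control cells (SD, n = 3 each), a difference of 0.66 (exact permutation test, p = 0.1, adjusted p = 0.6 over 6 ratios). It was 0.72 without vector control 1. Set against the heavy-strand mRNAs, mt-Rnr2 had ratios of -0.21, 0.32 and -0.37 in ATM KO libraries and -0.35, -0.22 and -0.18 in vector control libraries, which overlap. That difference was 0.17 (exact permutation test, p = 0.8) and it turned to -0.037 without ATM KO 2. For mt-Rnr1 against the heavy-strand mRNAs the ratios were -2.70, -2.25 and -3.06 in ATM KO libraries and -2.41, -1.89 and -2.25 in vector control libraries, a difference of -0.49 (exact permutation test, p = 0.2), which was -0.60 without vector control 1. The sources used here do not state how far rRNA was removed or mRNA selected, and its part in the rRNA values was not tested.

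**Figure D4:**
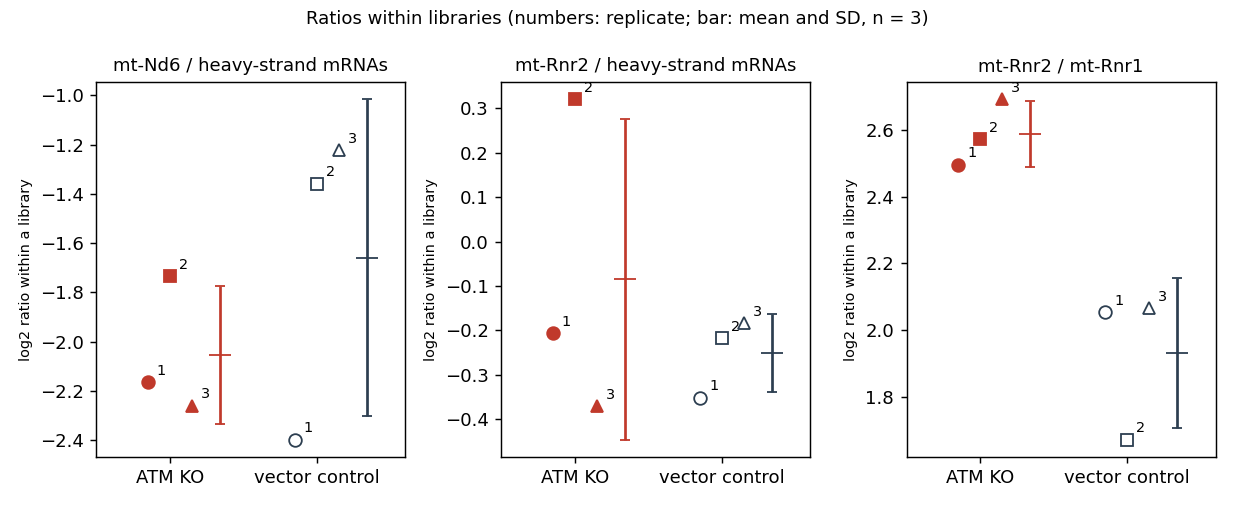
Log2 ratios within each library of mt-Nd6 to the heavy-strand mRNAs, mt-Rnr2 to the heavy-strand mRNAs and mt-Rnr2 to mt-Rnr1, with replicate numbers and bars for mean and SD (n = 3 each). The groups overlap in the first and second panels, where vector control 1 and ATM KO 2 lie apart from their groups, and not in the third.

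The light-strand tRNA mt-Tp could be set beside mt-Nd6. Its log2 ratio to mt-Nd6 was -6.88, -7.17 and -7.58 in ATM KO libraries and -7.21, -7.55 and -7.51 in vector control libraries. These overlapped, with a difference of 0.21 (exact permutation test, p = 0.5). Its ratio to the heavy-strand mRNAs also overlapped, with a difference of -0.18 (exact permutation test, p = 0.6). Without vector control 1 these differences were 0.32 and -0.44, and without ATM KO 3 the second turned to 0.11.

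The heavy-strand mRNAs differed in how closely they moved together. Across the 6 libraries, which share their groups and their factors, the log2 value of each correlated with the mean of the other heavy-strand mRNAs at 0.99 for mt-Cytb and mt-Nd4, 0.97 for mt-Nd5 and mt-Nd2, 0.95 for mt-Nd1 and 0.80 for mt-Co1. Against the mean of all 6 heavy-strand mRNAs the correlation was 0.93 for mt-Rnr2, 0.80 for mt-Rnr1 and 0.71 for mt-Nd6. These are descriptions over 6 libraries.

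Single genes left this shared course in single libraries. Relative to the heavy-strand mRNA mean of its library, mt-Co1 deviated by -0.59 in ATM KO 2 and by 0.32 and 0.39 in vector controls 2 and 3 on the log2 scale. mt-Nd1 deviated by 0.37 in vector control 1, and mt-Rnr2 by 0.49 in ATM KO 2. mt-Rnr1 deviated by -0.64 in ATM KO 3 and 0.54 in vector control 2. mt-Cytb stayed between -0.09 and 0.12 in all 6 libraries, positive in the 3 ATM KO libraries and negative in the 3 vector control libraries.

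**Figure D5:**
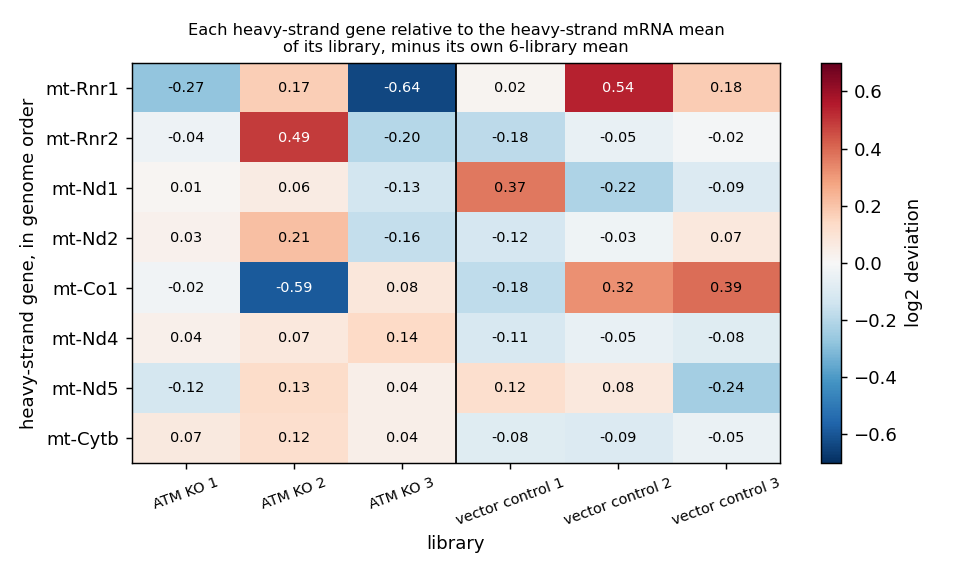
Log2 deviation of each heavy-strand mRNA and rRNA from the heavy-strand mRNA mean of its library, relative to the gene's own mean over 6 libraries, with ATM KO libraries left of the line and vector control libraries right of it. The largest deviations are those of mt-Rnr1 in ATM KO 3 (-0.64) and mt-Co1 in ATM KO 2 (-0.59).

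As shares of the reads of the 6 heavy-strand mRNAs listed, mt-Cytb took 18.3%, 19.4% and 18.3% in ATM KO libraries and 15.9%, 16.3% and 16.3% in vector control libraries. Vector control 1 lay with its own group here, and the groups did not overlap (difference 2.53 percentage points, exact permutation test, p = 0.1, adjusted p = 0.188 over the 15 shares). The difference was 2.39 percentage points without vector control 1. mt-Nd4 took 4.68%, 4.92% and 5.11% in ATM KO libraries and 4.06%, 4.39% and 4.14% in vector control libraries, again with no overlap (difference 0.706 percentage points, and 0.638 without vector control 1). mt-Co1 took 23.8%, 16.5% and 26.1% in ATM KO libraries and 20.7%, 30.1% and 30.6% in vector control libraries, and its groups overlapped. mt-Nd1 took 27.3% to 31.2% in ATM KO libraries and 25.04% to 36.4% in vector control libraries, the highest share being that of vector control 1.

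Levels of different genes were compared per kb of annotated length, as means of normalized read counts per kb. mt-Nd1 was highest, at 71350 ± 5476 in ATM KO cells and 44668 ± 31393 in vector control cells (SD, n = 3 each). In ATM KO cells mt-Cytb (38149 ± 4444), mt-Co1 (34249 ± 11991) and mt-Nd2 (33656 ± 465) followed, with overlapping ranges. Within each ATM KO library mt-Cytb stood above mt-Nd2, whereas the place of mt-Co1 varied. mt-Rnr2 (19938 ± 2602), mt-Nd6 (15494 ± 1327) and mt-Nd5 (12594 ± 1874) came next, the ranges of mt-Nd6 and mt-Nd5 overlapping, with mt-Nd4 (8351 ± 1436) and mt-Rnr1 (5500 ± 790) below them. mt-Nd6 nevertheless stood above mt-Nd5 within each ATM KO library. In vector control cells mt-Nd6 stood at 10687 ± 467, level with mt-Rnr2 at 9782 ± 3957, and mt-Nd5 (7149 ± 4029) overlapped mt-Rnr2 and mt-Nd6. Over vector controls 2 and 3 alone, mt-Nd6 averaged 10754 per kb, above mt-Rnr2 (7522) and mt-Nd5 (4889), and mt-Nd1 averaged 26557. Among the tRNAs, mt-Tl1 had the highest level per kb, 1221 ± 290 in ATM KO cells and 547 ± 328 in vector control cells, and the light-strand mt-Tp followed at 806 ± 169 in ATM KO cells and 469 ± 60.04 in vector control cells.

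Near-identical copies of mitochondrial DNA among annotated nuclear transcripts touch 2 of these levels. A stretch of at least 150 bases at 99% identity or more to a nuclear transcript was found for 2 of the 7 listed mRNAs and for 5 of the 6 mRNAs not analysed here. mt-Nd4 shares 876 of its 1378 bases with the chromosome 1 pseudogene Gm28439 at 100% identity, and mt-Co1 shares 483 of 1545 bases with Gm29216 at 99.8%. Reads in those stretches can be lost or shared, depending on how reads with several matches were counted, which the sources used here do not state. If no read of those stretches was counted, all reads of the gene belong to the remaining length, and the level per kb is higher. For mt-Nd4 that level was 22923 ± 3943 per kb in ATM KO cells and 11346 ± 5126 in vector control cells, and for mt-Co1 it was 49826 ± 17444 in ATM KO cells and 32623 ± 7755 in vector control cells. These are not upper limits, since copies under 99% identity might also take reads. Gm13340 matches mt-Co1 over all 1545 bases at 97.6%. mt-Nd6 had its closest copy in Gm11408, at 93.6% identity. Of the nuclear copies of mitochondrial mRNAs, the files list Gm13340 (copy of mt-Co1), Gm13341 (copy of mt-Co2) and Gm11407 (copy of mt-Nd5), all at values of 15.4 or less in every library.

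With all 6 libraries, the nuclear genes that serve mitochondrial transcription lay near the median of all genes. Of 12 genes, 10 were tested, 4 with a positive and 6 with a negative log2 fold change (median -0.021, beside -0.0090 over all genes). None passed an adjusted p of 0.05 with limma or DESeq2, and none an unadjusted p under 0.05 with limma. Polrmt, the mitochondrial RNA polymerase, stood at 929, 1041 and 644 in ATM KO libraries and 1061, 769 and 793 in vector control libraries. Tfam, which packages mitochondrial DNA and helps start transcription, stood at 1658, 1941 and 1496 in ATM KO libraries and 1933, 1695 and 1622 in vector control libraries. Both overlapped between groups, with vector control 1 at or near the top. Mrpl12, a ribosomal protein also described as binding the polymerase in human cells, had a log2 fold change of -0.34 (SE 0.63, limma), and Twnk, the helicase of mitochondrial DNA replication, listed as Peo1, one of 0.13 (SE 0.18, limma).

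The nuclear genes of mitochondrial RNA processing and modification, 19 in all, had a median of -0.14, with 4 positive and 15 negative. Hsd17b10, a subunit of mitochondrial RNase P, which cuts the 5′ ends of tRNAs, had a log2 fold change of -0.12 (SE 0.13, limma). It was 1 of 4 genes of this list with all ATM KO libraries below all controls, where 5.48% of all tested genes were. Trnt1, which adds the terminal bases at the 3′ ends of tRNAs, stood at 1224, 2063 and 1047 in ATM KO libraries and 3994, 1075 and 1021 in vector control libraries, with vector control 1 far above the other 2 controls. Pus1 and Rpusd4, both pseudouridine synthases, differed by 0.031 (SE 0.48) for Pus1 and -0.40 (SE 0.23) for Rpusd4 on the log2 scale with limma.

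The 16 genes of mitochondrial RNA stability and decay had a median of -0.086, with 5 positive and 11 negative, and 2 of them had all ATM KO libraries below all controls, where 5.48% of all tested genes did. Grsf1, a protein of mitochondrial RNA granules that binds G-rich RNA, was 1 of these, at 5813, 5996 and 6390 in ATM KO libraries and 8236, 6703 and 6608 in vector control libraries (log2 fold change -0.24, SE 0.14, limma). Fastk, whose mitochondrial form is needed for mt-Nd6 mRNA in mouse cells, stood at 1632, 1788 and 1931 in ATM KO libraries and 1650, 2049 and 2041 in vector control libraries, which overlap. Lrpprc, which stabilises heavy-strand mRNAs, had a log2 fold change of 0.017 (SE 0.24, limma). Pnpt1, the exonuclease that degrades mitochondrial RNA, had one of -0.33 (SE 0.39, limma). Neither of these lists had a gene past the adjusted threshold with limma or DESeq2, or past an unadjusted p of 0.05 with limma. Without vector control 1 the medians of the 3 lists were 0.13 for transcription, 0.12 for processing and 0.23 for decay. These lay above the median of all tested genes in that setting, -0.0012, so the place of the lists depends on this 1 library.

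Among 10084 other genes with a mean of at least 50, those most like mt-Nd6 across the 6 libraries differed from those most like the heavy-strand mRNAs. By Pearson correlation of log2 values, mt-Nd6 was closest to Pdia3 (0.996), a disulfide isomerase of the endoplasmic reticulum, followed by Hmgb1 (0.993), a chromatin protein, Rnf216 (0.993), Chtf8 (0.986) and Araf (0.980). Pdia3 stood at 21331, 22938 and 22028 in ATM KO libraries and 18612, 18676 and 18218 in vector control libraries, with vector control 1 level with the other controls. The mean of the heavy-strand mRNAs was closest to Zfp697 (0.992), Bspry (0.991), Tmem185b (0.9905), Gramd3 (0.989) and the lysosomal membrane protein gene Lamp1 (0.986). Lamp1 stood at 17283, 16998 and 19170 in ATM KO libraries and 16781, 14161 and 13634 in vector control libraries, with vector control 1 next to ATM KO 2. With 6 libraries and so many genes, high correlations arise in number, and they are given as descriptions only.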

How the data were processed

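RNA was measured in 3 ATM KO and 3 vector control libraries, grouped by sample titles. The deposited files give a normalized signal for each gene, that is, whole reads divided by the authors by a factor of the library; dividing by the smallest step returned whole reads for 100% of values, within 0.01 reads. Named in the submitters' processing notes, without role or version, are STAR, HTSeq, DESeq2, SAMtools, cutadapt and Trim Galore, and the builds GRCm38 and mm9. The files hold no coordinates, so positions, strands and sequences come from GENCODE M21 on GRCm38.

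Members, nuclear lists and tests were chosen with earlier results of these data known. The test across genes was limma 3.58.1 (R 4.3.3) on log2(value + 1), a scale that understates changes of low genes, with trend, 2-sided, over the 12149 genes with a mean of at least 10, Benjamini-Hochberg adjustment and a threshold of 0.05. Alternatives were a pseudocount of 0.5, no filter or a mean of at least 50, other scalings, edgeR 4.0.16 and DESeq2 1.42.0 on the recovered reads, a replicate block, and leaving out each library. Shares and ratios were tested by exact permutation over the 20 splits of 6 libraries (SciPy 1.17.1, Python 3.11.15). Nuclear copies were found with BLAST+ 2.17.0 against GENCODE M21 transcripts, and the limits of 99% identity and 150 bases were set after the matches were seen. The fits and the exact test were tested on simulated data. Every mt- gene is named. From each nuclear list, genes past the threshold or, with none, the 4 with the highest mean are named. Also named are the 5 genes with the highest correlation to mt-Nd6 and to the heavy-strand mRNAs, after predicted, clone-named and pseudogene symbols were left out. The 6 libraries held 22494919 to 32341508 reads over the genes listed, and intervals cover counting error only.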

Additional observations from a re-analysis of the deposited data

How the results depend on the processing

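The members' share of reads, the ratio of mt-Nd6 to heavy-strand mRNAs and the median of the heavy-strand genes kept their direction under every alternative run. Leaving out each library gave differences of 0.343 to 0.578 percentage points for the share, -0.76 to -0.17 for the mt-Nd6 ratio, -0.037 to 0.31 for the mt-Rnr2 ratio, and a heavy-strand median of 0.85 to 1.40. The members without overlap then numbered 8 to 13, against 8 with all libraries and 13 without vector control 1. Over all tested genes, the share with ATM KO above and no overlap was 5.7% with all libraries and 19.6% without vector control 1. It was not taken for the other libraries left out. The mt-Rnr2 ratio reversed to -0.037 without ATM KO 2. No mitochondrial gene passed the threshold with limma under any setting, scalings included, or with edgeR, and 1 did with DESeq2, against 0 with limma; the cause was not tested. The log2 ratio to mt-Nd6 reversed for mt-Rnr1 (0.16 without vector control 1, range -0.35 to 0.16) and for mt-Co1 (-0.096 without ATM KO 1, -0.19 without ATM KO 3, -0.043 without vector control 2 and -0.074 without vector control 3, range -0.19 to 0.40). The log2 fold change of mt-Tq reversed to -0.0061 without ATM KO 2 and -0.22 without vector control 3, with a range of -0.22 to 1.31. The log2 ratio of mt-Tp to the heavy-strand mRNAs reversed to 0.11 without ATM KO 3 (range -0.44 to 0.11). In percentage points of heavy-strand mRNA reads, the difference of mt-Nd1 reversed to -0.065 without ATM KO 1, -0.891 without ATM KO 2, -2.09 without vector control 2 and -1.40 without vector control 3 (range -2.09 to 3.62), and that of mt-Nd5 to -0.191 without vector control 3 (range -0.191 to 1.08). Leaving out libraries for the count of members without overlap, the shares by strand, class and gene, the heavy-strand mean and the ratios of mt-Rnr1 and mt-Tp and of mt-Rnr2 to mt-Rnr1, and the levels outside copied stretches, were chosen after seeing the data.

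Replicate numbers are shared between groups. Deviations from the group mean correlated at -0.021, -0.58 and 0.53 between libraries of the same number, and the best match of ATM KO 2 was vector control 1 at 0.61. Vector controls 2 and 3 deviated almost alike, with ATM KO 3 at 0.53 to each. These correlations therefore cannot decide whether the libraries were paired by number. With the replicate block, 0 mitochondrial genes passed the threshold, and the mt-Nd6 ratio stayed at -0.39 (exact sign-flip permutation test, p = 0.5, where 0.25 is the smallest that 3 pairs allow). Depth limits the tRNAs, most of which had under 50 reads per library.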
